A study of Mus musculus with 2 samples.

Results

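Voltage-gated sodium channels carry the inward current that starts and spreads the action potential, and the 7 genes described here encode their subunits in the mouse brain. They were taken by symbol, 7 of 55536 Ensembl gene rows, and comprise 4 pore-forming alpha subunit genes (Scn1a, Scn2a, Scn3a and Scn8a) and 3 auxiliary beta subunit genes (Scn2b, Scn3b and Scn4b). The tissue was the left cerebral cortex of 2 female mice of the B6CASTF1/J hybrid strain, 10 days old, obtained from The Jackson Laboratory, with no treatment named in the labels. The hybrid is the first-generation cross of the inbred strains C57BL/6J and CAST/EiJ, and every read was counted against 1 reference genome with the alleles together. Each total RNA library started from 300 ng of RNA and carried an ERCC spike-in set made for stranded libraries depleted of ribosomal RNA. The labels number the libraries as biological replicates 1 and 2 of 1 group, under the same donor identifier, so there is no contrast between conditions, and 2 values allow no test (the smallest exact two-sided p is 0.5).

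A sodium channel alpha subunit is a single long polypeptide of 4 homologous domains, named I to IV, that forms the pore and the voltage sensors by itself. Beta subunits are small membrane proteins with an immunoglobulin-like extracellular domain that change the gating and the surface level of the alpha subunit and also act in cell adhesion. In rodent forebrain Scn2a and Scn3a are known as early expressed genes, Scn8a and Scn1a as genes whose level climbs after birth, and Scn8a as the main channel of mature axon initial segments and nodes of Ranvier. Scn1a is known for its role in parvalbumin interneurons.

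The 2 libraries held 29990965 and 31156256 expected reads over all rows, of which 50007 and 49803 fell on the 7 genes. Markers of excitatory cortical neurons reached 1 TPM, a length-scaled relative abundance of transcripts, in both libraries for 6 of 6 genes, and their summed level was 772 and 777 TPM. The 6 genes listed as markers of other brain regions summed to 42.5 and 41.5 TPM, and 4 of the 6 reached 1 TPM in both libraries. They were led by Slc17a6, a vesicular glutamate transporter gene, at 23.49 and 18.41 TPM and Drd1, a dopamine receptor gene, at 10.98 and 9.32 TPM. Ttr, a choroid plexus gene, was the 1 of these 4 at least 2-fold apart, at 3.98 and 9.70 TPM, and Gabra6 of cerebellar granule cells was at 0 and 0.12 TPM. The 5 oligodendrocyte markers differed between the animals, with a summed level of 187 TPM in replicate 1 and 366 TPM in replicate 2, and 3 of the 5 were at least 2-fold apart. The part of these markers in the channel values was not tested. Whether reads of the genes listed for other regions came from cortical cells or from other tissue was not tested either. In whole tissue, fewer cells of a type and less RNA per cell cannot be told apart.

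All 7 genes reached 1 TPM in both animals, against 59.1% of all protein-coding genes. Scn2a, the NaV1.2 channel of excitatory neurons, was the highest of the 7, at 177.94 TPM in replicate 1 and 162.36 TPM in replicate 2, or 170 ± 11.02 TPM (SD, n = 2). Its credible interval, a range that the authors' quantification gives for each estimate at a level not stated in the sources used here, ran from 169 to 179 TPM in replicate 1 and from 154 to 162 TPM in replicate 2. The intervals did not meet. A deposited TPM can lie at the upper end of its interval, as it did for Scn2a, and for Scn2b in replicate 1 it lay just above it, at 43.98 TPM against a bound of 43.94 TPM. Of the detected protein-coding genes, 3.76% had a higher mean TPM than Scn2a.

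Scn8a, the NaV1.6 channel, had 84.19 TPM in replicate 1 and 79.43 TPM in replicate 2, or 81.8 ± 3.37 TPM. Scn2a was 2.08-fold higher than Scn8a, with log2 ratios of 1.08 in replicate 1 and 1.03 in replicate 2. Scn3a, the NaV1.3 channel, had 33.81 TPM in replicate 1 and 25.27 TPM in replicate 2, or 29.5 ± 6.04 TPM. Scn1a, the NaV1.1 channel, had 28.16 TPM in replicate 1 and 23.03 TPM in replicate 2, or 25.6 ± 3.63 TPM. These levels of the early Scn3a and the later Scn1a lay close together, Scn3a over Scn1a being 1.15-fold, with log2 ratios of 0.26 and 0.13. Their credible intervals were apart in 1 of the 2 libraries.

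Of the summed TPM of the 4 alpha subunit genes, 307 ± 24.0 TPM, Scn2a made up 55.4 ± 0.754%, Scn8a 26.7 ± 0.993%, Scn3a 9.57 ± 1.22% and Scn1a 8.31 ± 0.530%. A second, alignment-free quantification of the same reads gave 55.5 ± 0.638% for Scn2a, 27.4 ± 1.52% for Scn8a, 9.05 ± 0.478% for Scn3a and 8.03 ± 0.407% for Scn1a. The makeup of the alpha subunit transcripts was thus within a few percentage points in both animals and in both tables. TPM is scaled by transcript length, so these shares compare numbers of transcripts and not numbers of reads.

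Among the beta subunit genes, Scn3b had 75.29 TPM in replicate 1 and 61.62 TPM in replicate 2, or 68.5 ± 9.67 TPM. Its product associates with alpha subunits without a disulfide bond. Scn2b, whose product is linked to the alpha subunit by a disulfide bond, had 43.98 TPM in replicate 1 and 41.92 TPM in replicate 2, or 42.95 ± 1.46 TPM. Scn4b, also disulfide-linked and known as the blocking particle of resurgent current in cerebellar Purkinje cells, had 2.15 TPM in replicate 1 and 1.90 TPM in replicate 2, or 2.03 ± 0.177 TPM, from 197 and 190 reads. It was the lowest of the 7 genes by far, and 93.6% of the detected protein-coding genes had a higher mean TPM. Scn2b and Scn4b lie 8.324 kb apart on the same strand of chromosome 9 (mm10), and Scn2b was 20.3-fold higher than Scn4b, with log2 ratios of 4.29 in replicate 1 and 4.39 in replicate 2.

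**Figure D1:**
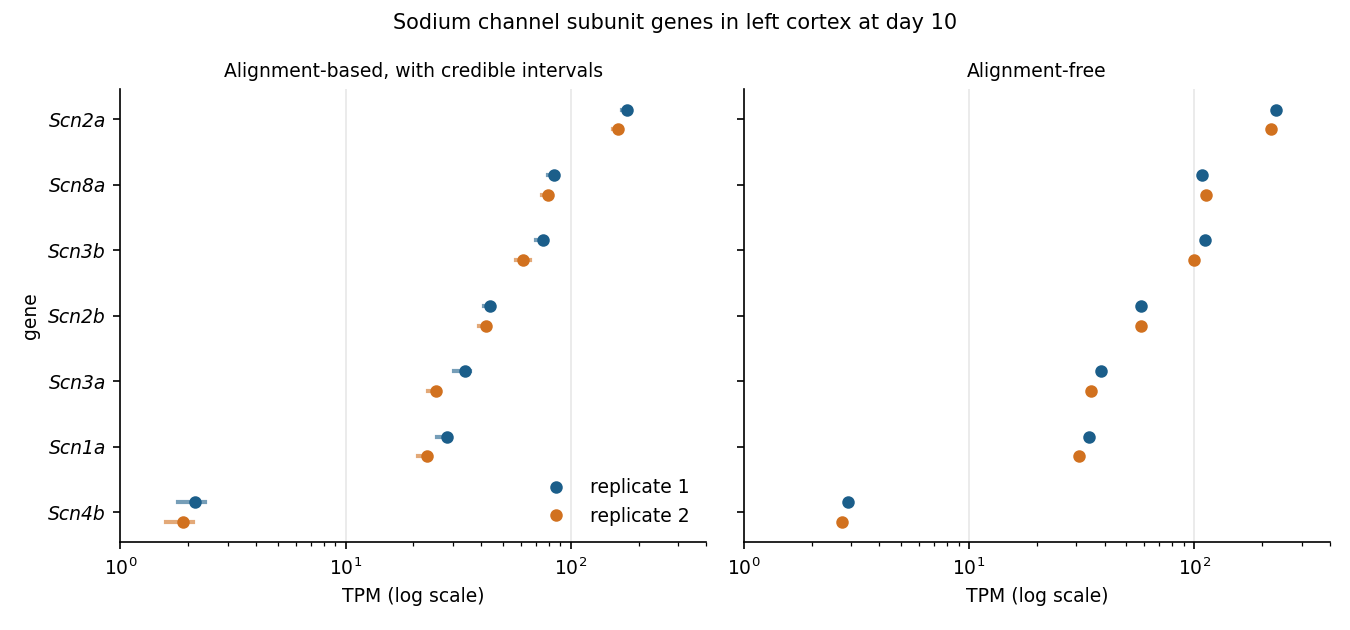
TPM of the 7 genes (log axis), ordered by mean level, in replicate 1 (blue) and replicate 2 (orange), with the authors' credible intervals as bars on the left and the alignment-free values on the right. Scn2a leads at 162.36 to 177.94 TPM in the alignment-based table and Scn4b is lowest at 1.90 to 2.15 TPM; the alignment-free values lie higher for all 7 genes, in the same order of means.

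Ranked by mean TPM, the order was Scn2a, Scn8a, Scn3b, Scn2b, Scn3a, Scn1a and Scn4b. Neighbours were called apart when their log2 ratio had the same sign in both libraries and its mean exceeded 2 SD, a rule of description and not a test. By it 5 of the 6 neighbouring pairs were apart. The exception was Scn8a over Scn3b, 1.20-fold, with log2 ratios of 0.16 and 0.37, and in the alignment-free table their order differed between the libraries, at -0.045 and 0.18. Scn3b over Scn2b was 1.58-fold, Scn2b over Scn3a 1.47-fold and Scn1a over Scn4b 12.1-fold. These sizes depended on the length used. With reads divided by the length of all exons of the gene joined, the log2 ratio was 1.27 for Scn2b over Scn3a, against 0.55 in TPM, and 2.83 for Scn1a over Scn4b, against 3.59. On that scale Scn3b over Scn2b, at 0.05 against 0.66, was no longer apart, and Scn8a lay below Scn3b, at -0.21.

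The alignment-free levels were higher than the alignment-based ones for 7 of 7 genes, by 1.24-fold for Scn3a to 1.54-fold for Scn3b, and 98.1% of detected protein-coding genes were also higher there, by a median of 1.503-fold. Nuclear protein-coding genes took up 79.1% and 80.0% of all TPM in the alignment-free tables, against 50.8% and 48.5% in the alignment-based ones. A TPM from one table should therefore not be set against a TPM from the other.

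The animals differed little in these genes. After scaling of the expected reads by the trimmed mean of M-values (TMM), 0 of the 7 genes were at least 2-fold apart between the libraries, against 0.355% of the 12689 genes with a mean of 100 reads or more. The widest was Scn3b, at a log2 ratio of replicate 1 over replicate 2 of 0.20, and 18.4% of those genes were further apart. Scn3a stood at 0.10, Scn1a at 0.094, Scn4b at 0.066, Scn2a at 0.016, Scn2b at -0.035 and Scn8a at -0.075. Credible intervals of TPM were apart between the libraries for 4 of the 7 genes (Scn1a, Scn2a, Scn3a and Scn3b), against 14.5% of all tested genes. In TPM all 7 genes were higher in replicate 1, as were 74.1% of protein-coding genes, while on TMM-scaled reads 5 of the 7 were, against 42.9%.

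Scn3a differed most between the 2 scales. Its expected reads were 4289 in replicate 1 and 4040 in replicate 2, and its log2 ratio was 0.42 in TPM against 0.10 in scaled reads. Its effective length, the length by which the authors' tool divides, was 6776 bases in replicate 1 and 7809 bases in replicate 2. A 365-base coding fragment, Scn3a-203, took 17.9% of the gene's TPM in replicate 1 and 6.41% in replicate 2, from 30.08 and 8.84 reads.

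A pair of mutually exclusive exons of 92 bases each lies near the start of the coding sequence of Scn2a, Scn8a and Scn3a, and codes for part of the voltage sensor of domain I. The upstream copy is known as 5N, for neonatal, and the downstream copy as 5A, for adult, and in rodent brain the 5A share is known to grow after birth. The annotation does not use these names, which are given here by order along the gene. The 5A sequences of the 2 highest alpha subunit genes are shown because they show how little the genes differ in this exon. Capitals mark the bases that differ between Scn2a and Scn8a.
Scn2a 5A, chr2:65682690-65682781, plus strand: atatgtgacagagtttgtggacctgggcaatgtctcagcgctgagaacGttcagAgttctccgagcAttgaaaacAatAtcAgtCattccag
Scn8a 5A, chr15:100959603-100959694, plus strand: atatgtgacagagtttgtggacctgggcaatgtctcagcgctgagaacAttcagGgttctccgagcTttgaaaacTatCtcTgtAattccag

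Coordinates are in mm10, and the sequences come from the GENCODE M21 transcripts. The 2 sequences are the same at 85 of 92 bases. The 5A copies of Scn2a and Scn3a were the same at 92 of 92 bases, so a read that lies inside that exon cannot tell these 2 genes apart. In Scn1a the coding transcripts carry 1 such exon of 92 bases, which matches 5A of Scn2a at 85 bases.

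In Scn2a, transcripts with 5N were the larger part. The 2 transcripts with 5N summed to 112.47 TPM in replicate 1 and 102.83 TPM in replicate 2, and the 2 with 5A to 54.34 and 49.48 TPM. The 5N share was 67.4% in replicate 1 and 67.5% in replicate 2, or 67.5 ± 0.0634%, and 65.9 ± 0.448% in the alignment-free table. Counted in expected reads in place of TPM it was 83.0 ± 0.0804%, and over full-length coding transcripts only 82.4 ± 0.168% of TPM. Scn2a-204, a short coding transcript with 5A that the last count leaves out, took 17.0 ± 0.220% of the gene's TPM in the alignment-based table. The 5N form was the larger one in both libraries under each of these counts, and the size of its lead differed between them.

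In Scn8a, transcripts with 5A were the larger part. The 3 transcripts with 5A summed to 50.42 and 48.10 TPM and the 7 with 5N to 21.31 and 19.21 TPM. The 5N share was 29.7% in replicate 1 and 28.5% in replicate 2, or 29.1 ± 0.827%, and 38.3 ± 2.20% in the alignment-free table. It rested on short coding transcripts in the alignment-based table, chiefly Scn8a-212 at 17.1 ± 0.505% of the gene's TPM, and over full-length coding transcripts only it was 1.04 ± 1.47%, against 26.9 ± 0.201% in the alignment-free table. By expected reads it was 8.40 ± 0.258%. The 5A form led in each of these counts, whereas the 5N share is not fixed by these tables.

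In Scn3a the only annotated transcript with 5N is the 365-base fragment named above, so the 5N share can be read only through it. It was 18.9% in replicate 1 and 6.65% in replicate 2, or 12.8 ± 8.69%, and was listed at 0 in both libraries of the alignment-free table. By expected reads it was 0.72% and 0.22%, or 0.472 ± 0.353%. The tables hold no full-length Scn3a transcript with 5N. No order of the 5N share between Scn3a and the other genes is drawn from this.

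**Figure D2:**
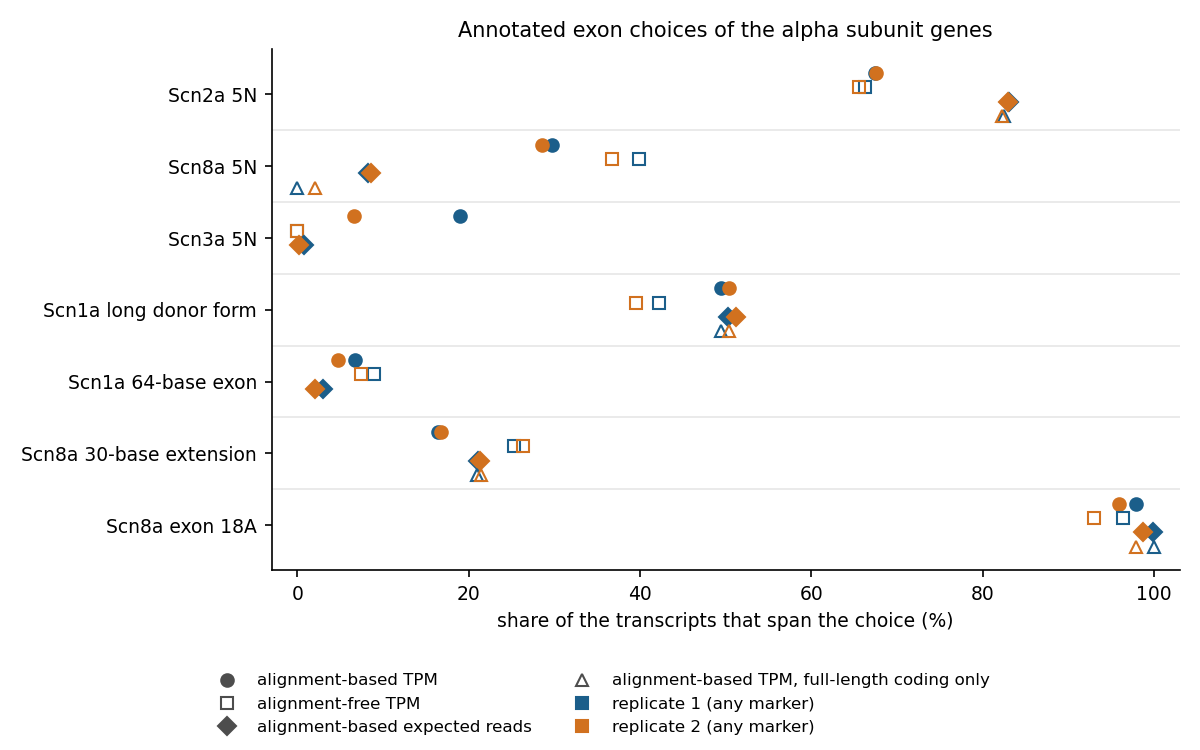
Share of each annotated exon form (percent of the transcripts that span the choice) in replicate 1 (blue) and replicate 2 (orange), by alignment-based TPM (filled circles), alignment-free TPM (open squares), alignment-based expected reads (filled diamonds) and full-length coding transcripts only (open triangles, drawn where such a transcript carries the form). The libraries lie close to each other in most rows, with 5N of Scn3a by TPM an exception at 18.9% and 6.65%, and the counts lie further apart than the libraries for 5N of Scn2a and Scn8a.

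Scn1a and Scn8a share a second kind of variation, in the cytoplasmic loop between domains I and II, where an alternative donor site lengthens an exon. The stretch added in Scn8a is given because it is the whole difference between its 2 forms.
Scn8a, 30-base extension, chr15:100984046-100984075, plus strand: gtgaaaatagataaggcagctacagacagt

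The Scn1a forms code for 2009, 1998 and 1981 residues, and are known to differ in this loop. The long form took 49.4% and 50.4% of the TPM of transcripts that span the site, or 49.9 ± 0.707%, and the middle form the rest, while the short form was listed at 0 in both libraries. In the alignment-free table the long form had 40.9 ± 1.85%, the middle form 53.4 ± 3.27% and the short form 5.69 ± 1.41%. In Scn8a the form with the extension had 16.4% and 16.7% of TPM, or 16.6 ± 0.215%, and 25.85 ± 0.719% in the alignment-free table. The long and middle forms together made up most of the Scn1a transcripts that span the site, and the extended form of Scn8a was the smaller one, in both libraries and both tables.

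Both genes also have exons that end the reading frame early. Scn1a has a 64-base exon, known as a poison exon because its inclusion leads to decay of the transcript, and 1 annotated transcript carries it, Scn1a-208.
Scn1a, 64-base exon, chr2:66293832-66293895, minus strand: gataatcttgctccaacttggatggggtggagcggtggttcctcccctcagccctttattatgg

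This transcript had 1.43 TPM in replicate 1 and 0.87 TPM in replicate 2, which is 6.68% and 4.70% of the transcripts that span the place, or 5.69 ± 1.40%, and 8.20 ± 1.11% in the alignment-free table. By expected reads it was 2.50%, from 92.93 and 61.40 reads. In Scn8a the 123-base exon 18A, which codes for part of domain III, was in 97.9% and 95.9% of the spanning TPM, or 96.9 ± 1.42%, and in 94.7 ± 2.38% in the alignment-free table. The 68-base exon 18N, which stops the frame and is known from fetal and non-neuronal tissue, was in 2.09 ± 0.0168%, all of it in 1 processed transcript, Scn8a-209, with 16.22 and 17.15 reads. Its share was 4.43 ± 1.19% in the alignment-free table and 0.160 ± 0.00149% by expected reads. Annotated transcripts with either frame-ending exon were thus a small part of the TPM of their gene.

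The leading transcript, the one with the highest TPM of its gene, was the same in both libraries for 5 of the 6 genes with more than 1 transcript, against 91.9% of protein-coding genes at 10 TPM or more. It was the same in both libraries and both tables for 3 of the 6 (Scn2a-201, Scn3a-202 and Scn2b-202), against 69.7%. In the alignment-free table alone it was the same in both libraries for 6 of the 6, against 89.9%. For Scn1a the leading transcript differed between the animals, with Scn1a-201 at 10.10 TPM and Scn1a-203 at 9.88 TPM in replicate 1. In replicate 2 they had 7.65 and 8.90 TPM. Their credible intervals overlapped in both libraries. They were 4.34 to 10.46 against 7.81 to 10.95 TPM in replicate 1. In replicate 2 they were 3.02 to 9.36 against 7.05 to 10.12 TPM. By expected reads Scn1a-203 led in both libraries. The alignment-free table put Scn1a-204 first, which had 0.01 and 1.10 TPM in the alignment-based one. Scn8a was led by Scn8a-205 at 40.55 ± 1.60% of its TPM, but by Scn8a-203 at 21.8 ± 0.784% in the alignment-free table. Scn3b was led by Scn3b-203 at 33.7 ± 2.06%, but by Scn3b-201 at 45.8 ± 0.224%. Scn4b has 1 annotated transcript.

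The tables differed on most of the larger transcripts of the other 6 genes. Of 21 transcripts that reached 10% of their gene's TPM in a library of either table, 20 had table means further apart than the 2 animals were in either table, and 17 had table means at least 10 percentage points apart. The exception among the 21 was Scn3a-202, at 68.9% in replicate 1 and 83.5% in replicate 2 of the alignment-based table and 90.7 ± 2.24% in the alignment-free one. It and Scn3a-203 were the 2 transcripts with animals at least 10 percentage points apart. These counts were not made over the transcripts of other genes, so they show no trait particular to the channel genes. A transcript was taken when its share was high in either table, which can favour wide gaps between the tables.

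The widest gap was that of Scn1a-204, at 2.40 ± 3.35% in the alignment-based table and 34.5 ± 0.505% in the alignment-free one. Scn1a-201 had 34.5 ± 1.88% and 8.81 ± 2.94%, and Scn1a-206 had 15.3 ± 3.91% and was listed at 0 in the alignment-free table. Scn8a-205 had 40.5 ± 1.60% and 9.96 ± 0.284%. The other large Scn8a transcripts did not all move the same way. Scn8a-201 was listed at 0 in the alignment-based table and had 17.9 ± 0.762% in the alignment-free one, and Scn8a-204 had 12.9 ± 0.479% and 19.3 ± 0.490%.

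In Scn2a, Scn2a-205 had 13.5 ± 0.176% in the alignment-based table and 27.7 ± 2.13% in the alignment-free one, and Scn2a-204 had 17.0 ± 0.220% and 2.65 ± 1.66%. In Scn3b, Scn3b-201 had 24.0 ± 4.96% and 45.8 ± 0.224%, Scn3b-202 had 24.7 ± 3.08% and 0.839 ± 0.0671%, and Scn3b-205 had 9.53 ± 3.47% and 15.7 ± 4.32%. Scn2b-201 had 10.8 ± 3.38% and was listed at 0 in the alignment-free table. For most of these 21 shares the table means thus lay further apart than the animals. For some the gap between table means and the wider gap between animals were nearly equal, in percentage points. These were Scn3a-202 (14.46 and 14.55), Scn3a-203 (12.14 and 11.45), Scn1a-203 (3.72 and 3.54) and Scn3b-205 (6.19 and 6.11).

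**Figure D3:**
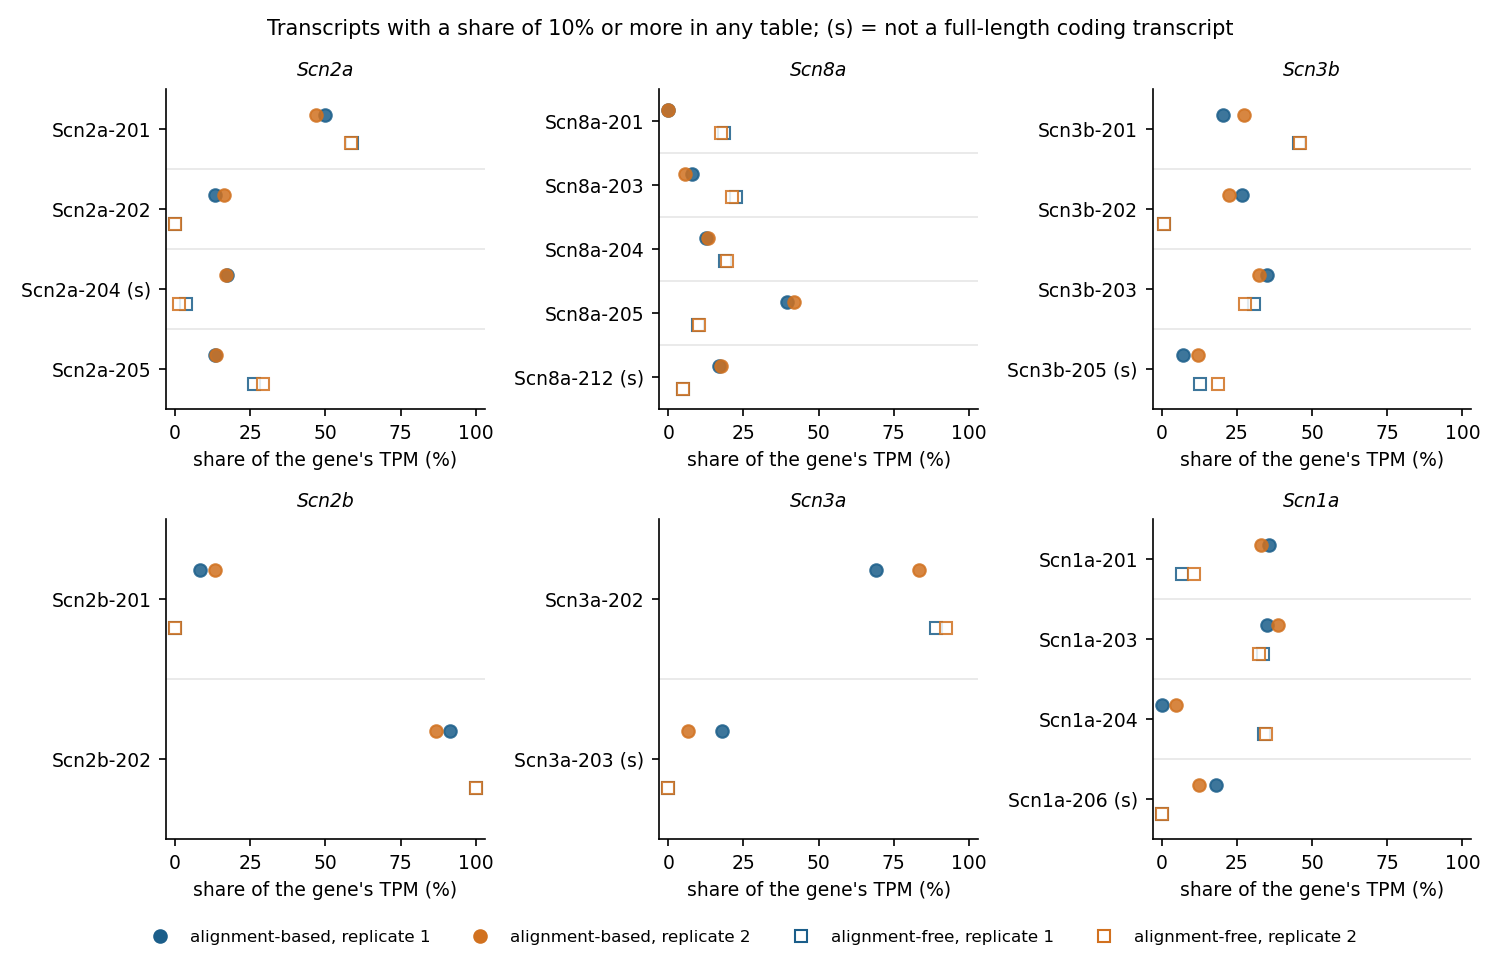
Share of the gene's TPM (percent) of each transcript that reached 10% in any table, for the 6 genes with more than 1 transcript, in replicate 1 (blue) and replicate 2 (orange), alignment-based (filled circles) and alignment-free (open squares). For 20 of the 21 transcripts shown the 2 quantifications lie further apart than the replicates, narrowly so for Scn3a-203, Scn1a-203 and Scn3b-205. The replicates lie at least 10 percentage points apart for Scn3a-202 and Scn3a-203.

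Full-length coding transcripts were defined as those with at least 90% of the longest coding sequence. In the alignment-based table they held 76.8 ± 0.267% of the TPM of Scn2a, 60.9 ± 1.37% of Scn8a, 83.2 ± 9.59% of Scn3a, 73.8 ± 3.97% of Scn1a and 82.4 ± 0.175% of Scn3b. In the alignment-free table these shares were, in the same order, 86.4 ± 1.86%, 69.9 ± 0.207%, 94.2 ± 1.62%, 81.0 ± 1.49% and 76.0 ± 1.93%. Scn3b thus lay above Scn2a and Scn1a in the first table and below both in the second. By expected reads the shares were 94.7%, 91.0%, 97.3%, 91.1% and 95.1%. Transcripts with a retained intron held 10.6 ± 0.592% of the alignment-based TPM of Scn8a, 6.46 ± 0.859% of Scn1a, 5.48 ± 0.115% of Scn2a and 4.92 ± 0.968% of Scn3b. In the alignment-free table these were 9.68%, 7.90%, 7.44% and 4.84%, and by expected reads 0.759%, 2.81%, 0.936% and 1.95%. Scn8a, which has 20 annotated transcripts, thus had the lowest full-length share of TPM of the 7 genes in both tables. By expected reads it lay close to Scn1a. Scn2b and Scn4b have full-length transcripts only.

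First exons were compared among the transcripts of a gene that begin no later than its first coding exon. In Scn2a, those that begin at the distal first exon had 68.4 ± 2.57% of the TPM of these transcripts. Those that begin at the proximal one had 16.3 ± 0.430%. In the alignment-free table the 2 shares were 67.98 ± 2.49% and 32.0 ± 2.49%. The remaining 15.3 ± 2.14% was Scn2a-202, which is annotated to start within the first coding exon. It had a share of almost 0 in the alignment-free table (7.36e-06%). For Scn1a the transcripts that begin at the distal first exon, at the middle one and within the first coding exon had 25.3 ± 0.0727%, 38.5 ± 2.25% and 36.1 ± 2.32%. In the alignment-free table they had 47.7 ± 0.231%, 37.3 ± 1.63% and 15.1 ± 1.86%. The alignment-based distal share of Scn1a rested mostly on Scn1a-206, a short coding transcript, and Scn1a-205, with a retained intron. Over full-length coding transcripts only it was 3.14 ± 4.37%, against 42.6 ± 0.159% in the alignment-free table. By expected reads it was 9.63 ± 3.24%. The distal share of Scn2a was thus alike in both tables over all the transcripts compared, and that of Scn1a was not. Over full-length coding transcripts only, the distal share of Scn2a was 63.1 ± 2.78%, against 67.97 ± 1.77% in the alignment-free table. For Scn3b the last exon was compared among full-length coding transcripts only, so the shares are not of all the gene's TPM. Among these, both tables placed more in the form with a 90-base intron of the last exon spliced out. It had 59.1 ± 2.41% and, alignment-free, 61.4 ± 1.77%. In Scn2b the form that keeps a 597-base intron of the last exon, Scn2b-202, had 89.2 ± 3.38%, and all of the gene's TPM in the alignment-free table.

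The 7 genes lie on chromosomes 2, 9 and 15 of mm10. Scn3a (ENSMUSG00000057182.14) spans chr2:65457118-65567627, Scn2a (ENSMUSG00000075318.12) chr2:65620771-65767447 and Scn1a (ENSMUSG00000064329.13) chr2:66270778-66440840. Scn8a (ENSMUSG00000023033.14) spans chr15:100869858-101045938. Scn3b (ENSMUSG00000049281.16) spans chr9:40269217-40291618, Scn2b (ENSMUSG00000070304.12) chr9:45117782-45130070 and Scn4b (ENSMUSG00000046480.6) chr9:45138395-45154152. Scn3a (minus strand) and Scn2a (plus strand) stand back to back on chromosome 2, 53.1 kb apart, and Scn1a follows Scn2a after 503 kb. In that stretch Csrnp3, a nuclear protein gene, had 52.78 TPM in both replicates, while Galnt3, a glycosyltransferase gene, averaged 2.32 ± 0.226 TPM and Ttc21b, a cilium gene, 4.79 ± 0.559 TPM. Beyond Scn1a, Scn9a of sensory neurons averaged 2.87 ± 0.728 TPM and Scn7a, a sodium-sensing channel gene, 0.12 ± 0.0141 TPM. Csrnp3 thus lay between Scn2a and Scn3a in level, and the other 4 neighbours lay below Scn1a, Scn2a and Scn3a. Genes that overlap the 7 on the other strand had at most 11 reads in a library.

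Among 6 further genes of the family, 2 reached 1 TPM in both libraries. Nalcn, the sodium leak channel gene, averaged 30.5 ± 3.52 TPM, close to Scn3a, and the other was Scn9a, given above. Scn4a of skeletal muscle and Scn10a and Scn11a of sensory neurons averaged 0.095, 0.045 and 0.13 TPM, from at most 25 reads in a library.

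Of 19 genes for known partners of these channels, 19 were at 1 TPM or more, with a median of 124 TPM against 42.95 TPM over the 7 subunit genes and 16.6 TPM over all detected protein-coding genes. Of these 19, the highest were Calm2 at 1178 ± 14.8 TPM and Calm3 at 1037 ± 22.1 TPM, both for calmodulin, which binds the channel's C-terminal tail, and Ank2, for the ankyrin-B scaffold, at 519 ± 27.2 TPM. Ank3, for the ankyrin-G scaffold that holds sodium channels at the axon initial segment, averaged 262 ± 6.51 TPM. Fgf11, of the intracellular fibroblast growth factor homologues that bind the same tail, was the lowest, at 8.71 ± 1.62 TPM. Of the 19, 0 were at least 2-fold apart between the animals, near the 0.355% of all genes with a mean of 100 reads or more.

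**Figure D4:**
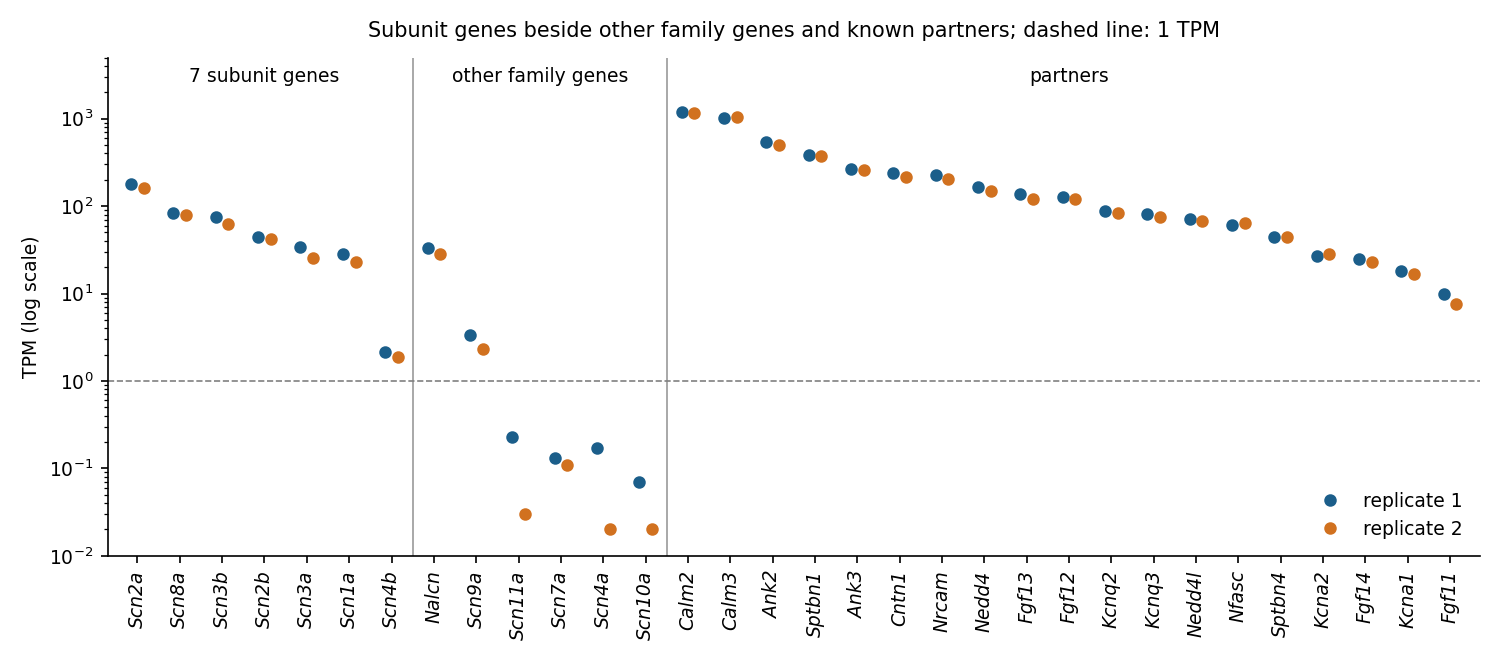
TPM (log axis) of the 7 subunit genes, 6 other family genes and 19 partner genes in replicate 1 (blue) and replicate 2 (orange), each list in order of mean level. Nalcn lies within the range of the 7 genes, Scn4a, Scn7a, Scn10a and Scn11a lie below the dashed line at 1 TPM in both replicates, and all 19 partners lie above it.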

How the data were processed

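Total RNA-seq libraries of 2 animals were analysed from the processed tables. Per the labels and the files that describe the tables, the authors quantified reads against mm10 with annotation M21. They deposited, per library, expected counts and TPM per gene and transcript from transcriptome alignments, with credible intervals, and estimated counts and TPM per transcript made from the reads without those alignments. No tool or version is named in the labels or file headers used here. Reads of a hybrid were counted against 1 reference genome, and alleles were not separated here.

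The 7 genes and the lists of family genes, partners and markers were chosen with earlier results of these data known. The naming rule took all 7 genes, the other genes of the family list and the chromosome 2 neighbours, and of the partners the 3 highest, the lowest and any under 1 TPM; Ank3 was named in addition after its value was seen. Some genes of these lists and some exon sequences are not reported here. Transcripts were named when leading or at 10% or more of the gene's TPM in a library of either table. The rule also took those whose rank differed between libraries or tables, but this held for 29 of the 31 smaller transcripts, and they are given only as that count.

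Expected counts were rounded and scaled by TMM (edgeR 4.0.16, R 4.3.3), with 0.5 added before log2 ratios; DESeq2 1.42.0 size factors were an alternative. In a test on simulated data over 55536 genes, 50 of 50 genes changed 3-fold, 26 of 50 changed 2-fold and 0 of 50 changed 1.5-fold were called. A 2-fold change lies at the cut-off itself. The spread was set by hand and only genes with many reads were changed. The test therefore checks the calculation and says nothing about the spread between these animals. Neighbour ratios used a pseudocount of 0.1 TPM. Exon forms were found from the M21 exon coordinates, and a form's share is the share of the annotated transcripts that carry it, not of reads over its junctions. SD is over 2 animals, and p-values were not computed.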

Additional observations from a re-analysis of the deposited data

How the results depend on the processing

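No paired analysis was possible because there is 1 group of samples. The counts of genes detected, of neighbouring pairs apart and of genes with the same leading transcript each stayed within 1.5 times the reported value under every alternative run. The count of genes at least 2-fold apart between libraries, 45 when a mean of 100 reads was asked for, came to 235 at a minimum mean of 20 reads and to 6243 with no filter, and 0 of the 7 genes were among them in each case. It was 42 with DESeq2 size factors, 67 from TPM ratios and 41 from alignment-free counts. Per kb of the exon union, an alternative added after seeing the data, Scn8a over Scn3b turned to a log2 ratio of -0.21 and Scn3b over Scn2b was 0.05, no longer apart, while Scn2b over Scn3a was 1.27 and Scn1a over Scn4b 2.83, each over 1.5-fold from its reported ratio. The log2 ratio of replicate 1 over replicate 2 changed sign for Scn8a (0.084) and Scn2b (0.069) by TPM and for Scn2a (-0.017) by alignment-free counts, all near 0. Of 35 exon-form shares recomputed over both animals, 29 moved by more than 1 SD; the cause was not tested. Full-length transcripts only was also an alternative added after seeing the data. Leaving out 1 of 2 animals gives the other animal's value and shows nothing about stability; for the count of neighbours apart and the leading transcripts it gives no value.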
